A study of Yarrowia lipolytica with 4 samples.

Results

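Protein glycosylation genes of the oleaginous yeast Yarrowia lipolytica were followed in messenger RNA libraries of a sur2 deletion strain and of its parent. They were found by annotation text: protein-coding genes whose description names a mannosyltransferase, an oligosaccharyl or glycosyltransferase, dolichol or a GPI anchor, or carries an ALG, PMT, OST, KTR, MNN, MNT, GPI or OCH symbol with a number, without mention of ceramide, chitin or cell wall. This gave 45 of the 6447 protein-coding genes that the deposited tables share. By that text, 13 act on the dolichol-linked glycan, 6 belong to oligosaccharyltransferase, 4 are protein O-mannosyltransferases, 8 are Golgi genes, 9 make or attach the GPI anchor and 3 are mannosyltransferases of another description. The remaining 2 match only because a neighbouring gene is quoted in their text, and they are described last.

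The sur2 deletion strain carries ku70Δ::tc and sur2Δ::LEU2, and the parent, which the labels call WT, carries ku70Δ::tc alone, so both strains lack an intact KU70 and the deletion strain also gained the LEU2 marker. Both were made in PO1f, and cells were collected from YPD at 28 °C once the OD600 reached 0.8. Each strain has 2 libraries, 1 in a table of transcripts and 1 in a table of genes, and libraries are called by strain and table. SUR2 encodes the hydroxylase that acts on the C4 position of sphingoid bases. Loss of SUR2, gain of LEU2 and any other difference between these strains cannot be told apart. Whether the 2 libraries of a strain came from separate cultures is not stated, so a p-value reflects the spread of these libraries alone, which may be technical.

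Protein glycosylation starts at the endoplasmic reticulum. For N-glycans, ALG enzymes build an oligosaccharide on the lipid dolichol, first on the cytosolic and then on the lumenal side of the membrane, and oligosaccharyltransferase moves it to asparagines of the nascent protein. PMT enzymes put mannose on serines and threonines, and GPI enzymes build the glycolipid that anchors many surface proteins. In the Golgi, mannosyltransferases of the MNN and KTR families lengthen the glycans. Mannose bound to dolichol phosphate feeds the lumenal ALG steps, the PMT enzymes and the GPI pathway alike. In Saccharomyces cerevisiae many GPI anchors later receive a ceramide in place of their first lipid, and inositol phosphorylceramide is itself mannosylated. Names and roles given here are those of the relatives quoted in the annotation, mostly of that yeast.

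Library totals ran from 8765729 to 16698719 counts. SUR2 (YALI0_E17347g, chromosome E, 2049611 to 2050672) had 0 reads in both deletion libraries, against 1402 and 1319 in the parent libraries (adjusted p = 0.00438, edgeR's quasi-likelihood test). Without the transcript table's parent library that adjusted p was 0.469, and without the gene table's it was 0.432. Reads of LEU2 (YALI0_C00407g, chromosome C, 46411 to 46866) numbered 1040 and 1528 in the deletion strain and 1532 and 2400 in the parent. Its log2 fold change was -0.43 ± 0.55, so the reads of this 456-base feature do not show the gain of the marker. Whether the feature measures the inserted copy was not tested. KU70 (YALI0_C08701g, chromosome C, 1180709 to 1182466) had 52 and 14 reads in the deletion strain and 89 and 23 in the parent. Levels below are CPM, counts scaled to library size with trimmed mean (TMM) factors, when strains are compared, and the authors' TPM, which also divides by length, when genes are compared. Values of a pair of libraries are given in the order transcript table, gene table.

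All 45 genes had enough reads to be tested, with 106 to 7112 reads in a library. In these bulk libraries, fewer cells of a form and less RNA per cell cannot be told apart. Mean TPM over the 4 libraries ran from 9.17 for YALI0_E24123g, a Golgi sugar transporter gene, to 380.4 for YALI0_B05500g, a short gene for a regulator of mannose phospho-dolichol synthesis. YALI0_B05500g had only 159 to 469 reads in a library, so its rank by TPM rests on the length that the authors divided by, which was not tested. The median gene stood at the 55.2nd percentile of the 6051 features tested, and the extremes at the 18.4th and the 93.5th. TPM was scaled within each library, so levels set across tables carry any difference in that scaling. The genes lay on all 6 chromosomes, 17 on E, 11 on D, 6 on F, 5 on B, 4 on A and 2 on C. No overlap of their coordinates with another annotated feature was found for any of the 45.

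**Figure D1:**
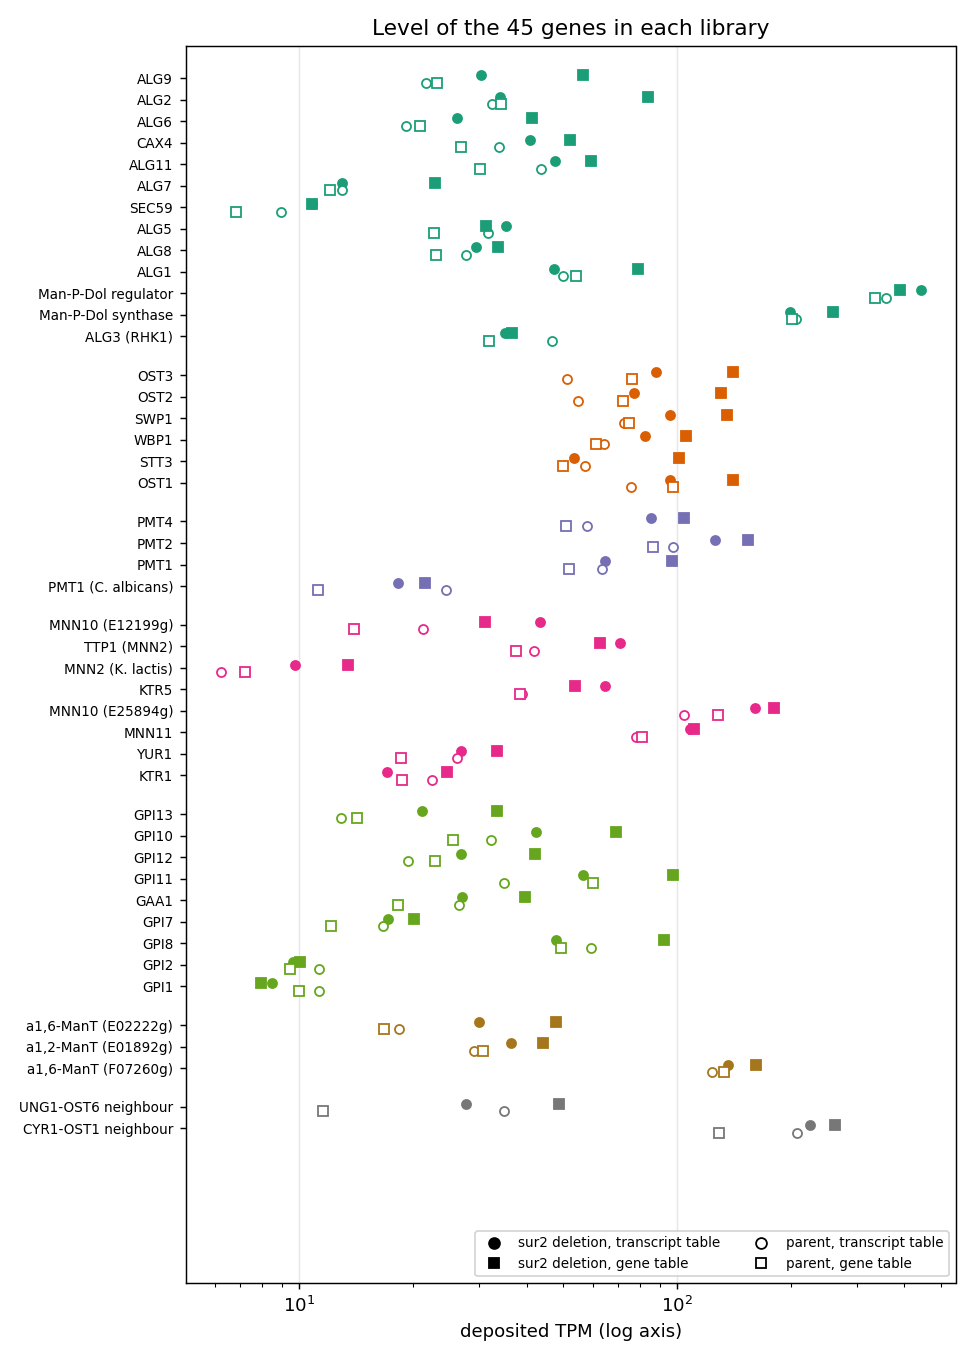
Deposited TPM (log axis) of the 45 genes, grouped by role, in each library. Filled symbols are the sur2 deletion strain and open symbols the parent; circles are the transcript table and squares the gene table. In each library PMT2 lies above the other O-mannosyltransferase genes, and the oligosaccharyltransferase genes lie within 1 narrow band, from 50.0 to 141 TPM over all libraries.

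No glycosylation gene passed the test between the strains. Of the 45, 0 were called higher in the deletion strain, against 0.992% of all features tested, and 0 lower, against 0.248% (edgeR's quasi-likelihood test, Benjamini-Hochberg adjusted p of 0.05). At an unadjusted p under 0.05 there were 0 of 45, against 12.4% of all features. The smallest adjusted p was 0.47, that of GPI1. Other tools also called 0 in either direction. The shares over all features were 4.33% higher and 2.05% lower with DESeq2. With limma they were 2.58% and 0.364% on log2(TPM + 1), and 2.99% and 0.38% on log2(TPM + 0.1). With the deposited table as a term in edgeR they were 1.85% and 0.545%.

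The fitted log2 fold changes, deletion strain over parent, ran from -0.77 for GPI1 to 0.73 for the MNN10-like gene YALI0_E12199g. Their median was 0.10 with an interquartile range of -0.07 to 0.30, beside a median of 0.03 and a range of -0.33 to 0.44 over all features. All 45 changes were under 1 in size on the log2 scale, as were 84.0% of all features, and 39 were under 0.5, as were 60.6% of all features. The error sets what this can show. Standard errors ran from 0.32 to 0.49, so that 15 genes had a 95% interval wholly between -1 and 1. For 21 genes the upper bound reached 1 or more and for 9 the lower bound reached -1 or less, and the outermost bounds were -1.63 and 1.62. A change of 2-fold is therefore outside the interval for only 15 of the 45 genes.

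**Figure D2:**
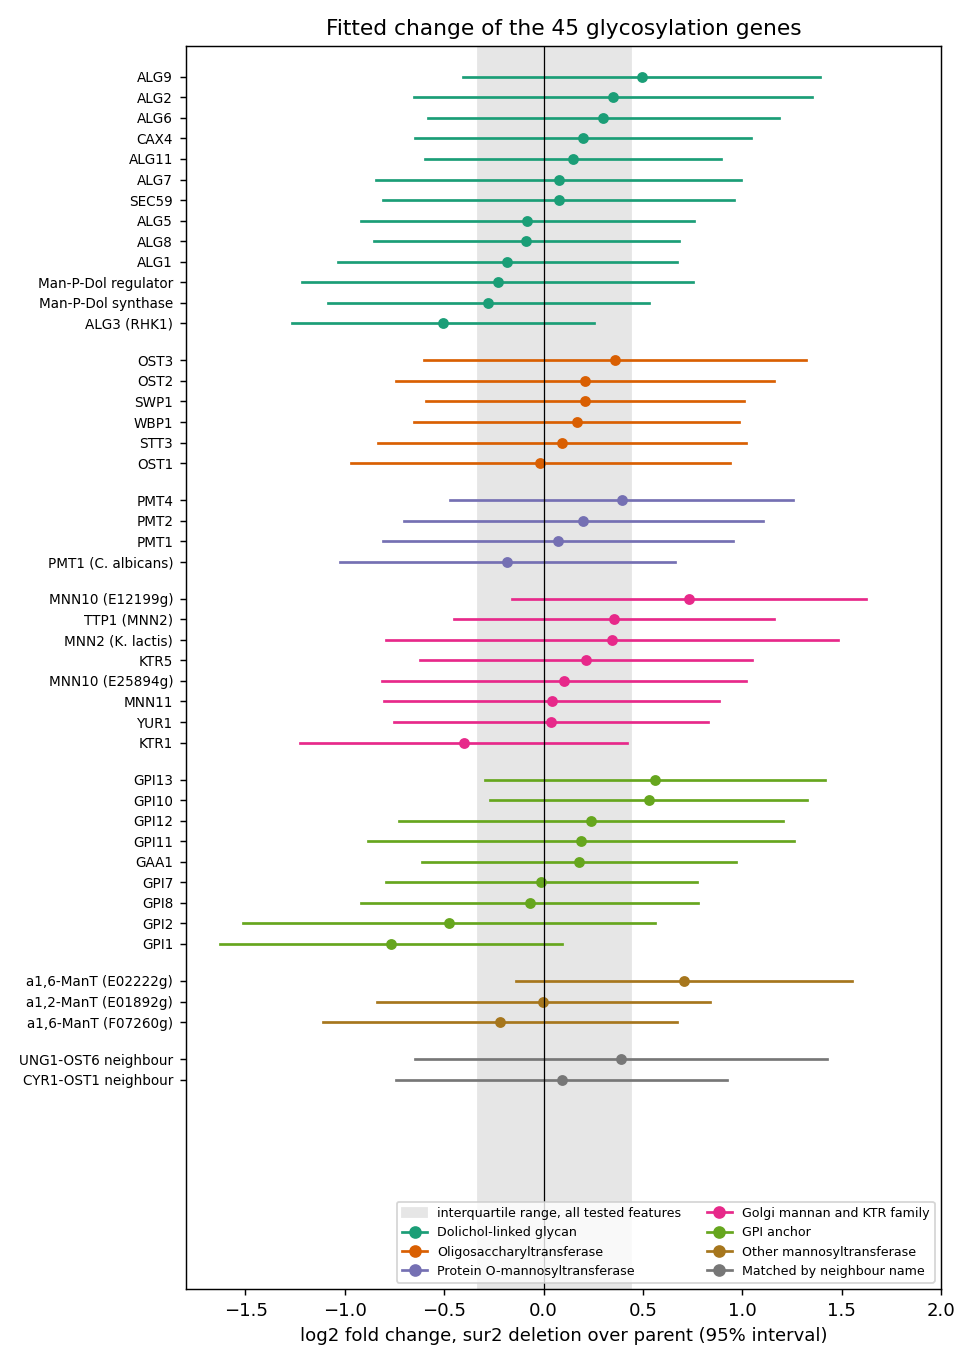
Fitted log2 fold change, sur2 deletion over parent, with its 95% interval for the 45 genes by role (edgeR, n = 2 libraries a strain). The grey band is the interquartile range over all features tested, -0.33 to 0.44; each interval includes 0, and GPI1 and the MNN10-like gene YALI0_E12199g mark the ends.

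Genes for the dolichol-linked glycan had a median log2 fold change of 0.07, from -0.51 to 0.49, and 7 of 13 had a positive value. With 1 library left out this median ran from -0.096, without the transcript table's parent library, to 0.10, without the gene table's. The cytosolic steps come first along the assembly line. ALG7 (YALI0_B16588g), which adds the first sugar to dolichol phosphate, had a log2 fold change of 0.08 ± 0.40. ALG1 (YALI0_E34133g), which adds the first mannose, had -0.18 ± 0.37. ALG2 (YALI0_E31797g) and ALG11 (YALI0_D08558g), which add the following mannoses, had 0.35 ± 0.43 and 0.15 ± 0.32. On the lumenal side the neighbours ALG3 and ALG9 had values of opposite sign.

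ALG3 (YALI0_E03190g, chromosome E, 347572 to 349188, annotated under its older name RHK1), which adds the first lumenal mannose, had 80.4 and 70.7 CPM in the deletion libraries, against 112 and 103 CPM in the parent libraries. The parent libraries were both above the deletion libraries, while in TPM the strains overlapped. The fitted log2 change was -0.51 ± 0.33 (95% interval -1.27 to 0.25, adjusted p = 0.621, edgeR). ALG9 (YALI0_E28941g, chromosome E, 3429695 to 3431380), which adds the next mannose, had 73.0 and 114 CPM in the deletion libraries, against 54.6 and 78.5 CPM in the parent libraries. Here the groups overlapped, with the gene table's library above the transcript table's in each strain. The fit gave a log2 fold change of 0.49 ± 0.39 (95% interval -0.41 to 1.39, adjusted p = 0.702, edgeR). The glucosyltransferases ALG6 (YALI0_D17028g) and ALG8 (YALI0_A17512g) had log2 fold changes of 0.30 ± 0.38 and -0.09 ± 0.33. ALG5 (YALI0_D06017g), which makes their donor, had -0.08 ± 0.36.

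The supply of dolichol phosphate and its mannose was read from 4 genes. Mannose phospho-dolichol synthase (YALI0_D06281g, chromosome D, 805693 to 806346), which serves the N-glycan, O-mannose and GPI routes, had 143 and 154 CPM in the deletion libraries, against 159 and 202 CPM in the parent libraries. The ranges did not overlap and the parent was higher, by a small margin within the transcript table. In TPM the strains overlapped and the means had the other order, with 199 and 259.6 TPM in the deletion libraries, against 207 and 202 TPM in the parent libraries. This was a log2 fold change of -0.28 ± 0.35 (95% interval -1.09 to 0.53, adjusted p = 0.845, edgeR). The regulator of that synthase (YALI0_B05500g), the gene of highest TPM here, had 441 and 389 TPM in the deletion libraries, against 357 and 334 TPM in the parent libraries. That rank rests on the length used for TPM, and the 394 bases of its coordinates do not account for it. YALI0_C09801g, described last, spans 357 bases and had higher CPM in each library. It had 53.4 and 48 CPM in the deletion libraries, against 54.9 and 40.4 CPM in the parent libraries. The regulator had 27.4 and 16.3 CPM, against 27.1 and 24.2 CPM. Yet mean TPM was 206 for YALI0_C09801g and 380.4 for the regulator. Which length was used for the regulator's TPM was not tested. The regulator's reads were few, 469 and 159 in the deletion libraries and 465 and 286 in the parent libraries. Its log2 fold change on the CPM scale was -0.23 ± 0.43, so its order between strains depends on the scale. SEC59 (YALI0_E18942g), the dolichol kinase, was the lowest of these genes by TPM. It had 10.8 and 10.8 TPM in the deletion libraries, against 8.94 and 6.8 TPM in the parent libraries. Its reads were close to those of the regulator, 470 and 226 in the deletion libraries and 406 and 288 in the parent libraries. In CPM the groups of SEC59 overlapped, and its log2 fold change was 0.07 ± 0.38. CAX4 (YALI0_D21032g), which in S. cerevisiae recycles dolichyl pyrophosphate, had 0.20 ± 0.37.

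Oligosaccharyltransferase is a complex, and its 6 genes here kept similar levels. Within a library the highest TPM was 1.40 to 1.95 times the lowest. The ratio was 1.79 and 1.40 in the deletion libraries, against 1.48 and 1.95 in the parent libraries. STT3 (YALI0_B16434g, chromosome B, 2162577 to 2164817), the catalytic subunit, had 53.6 and 101 TPM in the deletion libraries, against 57.3 and 50.0 TPM in the parent libraries. OST1 (YALI0_F14795g, chromosome F, 1979259 to 1980741), the most abundant on average, had 95.7 and 141 TPM in the deletion libraries, against 75.8 and 97.5 TPM in the parent libraries. On this scale the gene table's deletion library was the highest of the 4 for each subunit. By summed TPM it was also the highest for every other role, so this is not particular to the complex.

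On the CPM scale the median log2 fold change of the subunits was 0.19, with 5 of 6 positive. It moved to 0.35 without the transcript table's deletion library, 0.03 without the gene table's, -0.08 without the transcript table's parent library and 0.44 without the gene table's, so its sign and size rest on single libraries. OST3 (YALI0_D11066g, chromosome D, 1386818 to 1387873), a subunit with a thioredoxin-like fold, had 122 and 163 CPM in the deletion libraries, against 74.2 and 147 CPM in the parent libraries. The transcript table's parent library was the lowest and the other parent library lay between the deletion libraries. Its log2 fold change was 0.36 ± 0.42 (95% interval -0.60 to 1.32, adjusted p = 0.826, edgeR). Those of OST2 (YALI0_E08646g), SWP1 (YALI0_F30701g), WBP1 (YALI0_D06589g) and STT3 were 0.21 ± 0.41, 0.21 ± 0.35, 0.17 ± 0.35 and 0.09 ± 0.40, and that of OST1 was -0.02 ± 0.41. For each of the 6 genes the groups overlapped in CPM.

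The protein O-mannosyltransferase genes differed far more from each other than between strains. In each library PMT2 was the highest and the relative of Candida albicans PMT1 (YALI0_D10549g, chromosome D, 1316868 to 1319828) the lowest, 6.92 and 7.15 times apart in the deletion libraries and 3.98 and 7.66 times in the parent libraries. PMT2 (YALI0_C23364g, chromosome C, 3125149 to 3127377) had 126 and 154 TPM in the deletion libraries, against 97.4 and 86.2 TPM in the parent libraries. The C. albicans PMT1 relative had 18.2 and 21.6 TPM in the deletion libraries, against 24.5 and 11.3 TPM in the parent libraries. Its transcript-table parent library was the highest of the 4 and its gene-table parent library the lowest.

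PMT4 (YALI0_E05929g, chromosome E, 678546 to 680771), which in S. cerevisiae acts on membrane proteins, had 280.3 and 291 CPM in the deletion libraries, against 198 and 237 CPM in the parent libraries. Both deletion libraries were above both parent libraries, and its log2 fold change was 0.39 ± 0.38 (95% interval -0.47 to 1.26, adjusted p = 0.774, edgeR). PMT2, which pairs with PMT1 in S. cerevisiae, had 415 and 429 CPM in the deletion libraries, against 334 and 401 CPM in the parent libraries. The deletion libraries were again the higher ones, by little over the gene table's parent library. The fitted log2 change was 0.20 ± 0.39, that of PMT1 (YALI0_E15081g) 0.07 ± 0.38 and that of the C. albicans PMT1 relative -0.18 ± 0.37.

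Among the 8 Golgi genes, 7 had positive log2 fold changes with a median of 0.16, and the tables disagreed on most of them. That median ran from -0.002, without the transcript table's parent library, to 0.47, without the gene table's. The MNN10-like gene YALI0_E12199g (chromosome E, 1484247 to 1485995) belongs to the family that lengthens the α-1,6-mannose backbone. It had 109 and 65.7 CPM in the deletion libraries, against 55.6 and 49.4 CPM in the parent libraries. Both deletion libraries were above both parent libraries. The fit gave a log2 fold change of 0.73 ± 0.39 (95% interval -0.16 to 1.62, adjusted p = 0.51, edgeR), with 1.05 when the gene table's deletion library was left out and 0.32 when the transcript table's was (adjusted p = 0.382 and 0.816). The other MNN10-like gene, YALI0_E25894g, was the most abundant Golgi gene, at 161 and 180.2 TPM in the deletion libraries, against 105 and 129 TPM in the parent libraries. In CPM its groups overlapped, at 219 and 205 CPM in the deletion libraries, against 150 and 246 CPM in the parent libraries. On the CPM scale it had a log2 fold change of 0.10 ± 0.40. How reads are shared between such relatives is not known.

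MNN11 (YALI0_F17402g), a partner of MNN10 in S. cerevisiae, had a log2 fold change of 0.04 ± 0.37. TTP1, also called MNN2 (YALI0_A13585g, chromosome A, 1400732 to 1402465), which adds the branching α-1,2-mannose in S. cerevisiae, had 175 and 132 CPM in the deletion libraries, against 109 and 132 CPM in the parent libraries. Its gene-table libraries were almost equal, and the difference lay in the transcript table. This was a log2 fold change of 0.35 ± 0.35 (95% interval -0.45 to 1.16, adjusted p = 0.788, edgeR). KTR1 (YALI0_A06589g, chromosome A, 636192 to 637532), a mannosyltransferase of N- and O-linked glycans, had 31.4 and 38.1 CPM in the deletion libraries, against 43.3 and 48.5 CPM in the parent libraries. Here the parent was higher without overlap in CPM but not in TPM, where the deletion strain averaged 20.8 TPM and the parent 20.6 TPM, and the log2 fold change was -0.40 ± 0.36 (95% interval -1.22 to 0.42, adjusted p = 0.747, edgeR). KTR5 (YALI0_F25817g) and YUR1 (YALI0_B01672g), relatives of KTR1, had 0.21 ± 0.36 and 0.04 ± 0.34. The relative of the Kluyveromyces lactis Golgi UDP-N-acetylglucosamine transporter MNN2 (YALI0_E24123g) was the least abundant of the 45, with 212 and 140 reads in the deletion libraries and 142 and 151 in the parent libraries, and had a log2 fold change of 0.34 ± 0.49.

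The GPI anchor genes held the widest span, from -0.77 to 0.56, with a median of 0.18 and 5 of 9 positive. The median became 0.325 without the transcript table's deletion library, -0.01 without the gene table's, -0.087 without the transcript table's parent library and 0.13 without the gene table's, so its sign too changes with single libraries. The pathway opens with transfer of N-acetylglucosamine to phosphatidylinositol. GPI1 (YALI0_E10021g, chromosome E, 1231405 to 1233510), a subunit of that transferase, had 26.2 and 20.7 CPM in the deletion libraries, against 36.5 and 43.6 CPM in the parent libraries. Both deletion libraries were below both parent libraries, and this gene alone among the 45 had the same order without overlap in TPM, at 8.49 and 7.91 TPM in the deletion libraries, against 11.3 and 9.97 TPM in the parent libraries. Its log2 fold change was -0.77 ± 0.37 (95% interval -1.63 to 0.09, adjusted p = 0.47, edgeR). GPI2 (YALI0_B14223g), another subunit, had 12.5 and 10.8 CPM in the deletion libraries, against 15.3 and 17.2 CPM in the parent libraries. The order was the same in CPM, but in TPM the strains overlapped, and the log2 fold change was -0.48 ± 0.45 (95% interval -1.51 to 0.56, adjusted p = 0.773, edgeR).

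GPI10 and GPI13, later in the pathway, had positive values. GPI10 (YALI0_D04202g, chromosome D, 525312 to 526844), which adds the third mannose of the anchor, had 91.5 and 125 CPM in the deletion libraries, against 72.6 and 77.7 CPM in the parent libraries. The fitted log2 change was 0.53 ± 0.34 (95% interval -0.27 to 1.32, adjusted p = 0.624, edgeR). GPI13 (YALI0_E12089g, chromosome E, 1468158 to 1471205), which attaches phosphoethanolamine to that mannose, had 97.8 and 131 CPM in the deletion libraries, against 62.2 and 93.2 CPM in the parent libraries. For both genes the deletion libraries were above the parent libraries. The log2 fold change of GPI13 was 0.56 ± 0.37 (95% interval -0.30 to 1.41, adjusted p = 0.633, edgeR).

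The other GPI genes had smaller values. GPI12 (YALI0_E21934g), the deacetylase after the first step, had a log2 fold change of 0.24 ± 0.42, and GPI7 (YALI0_D26235g), which adds a side chain, -0.01 ± 0.34. GPI11 (YALI0_E03960g, chromosome E, 440268 to 440939) and GPI8 had the highest mean TPM of the GPI genes, 62.3 and 62.1, and GPI8 had the higher CPM in each library. GPI11 had 42.5 and 60.4 CPM in the deletion libraries, against 27.8 and 62.5 CPM in the parent libraries. The transcript table's parent library stood below the other libraries, and the log2 fold change was 0.19 ± 0.47. GPI8 (YALI0_F07733g) and GAA1 (YALI0_A08536g), the catalytic and a further subunit of the transamidase that joins anchor to protein, had -0.07 ± 0.37 and 0.18 ± 0.34.

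Of the mannosyltransferase genes with another description, YALI0_E02222g (chromosome E, 243112 to 244467), annotated as an α-1,6-mannosyltransferase for secreted proteins, had 55.9 and 74.9 CPM in the deletion libraries, against 35.9 and 44.2 CPM in the parent libraries. The deletion libraries were the higher ones in both tables. The fit gave a log2 fold change of 0.71 ± 0.37 (95% interval -0.14 to 1.55, adjusted p = 0.508, edgeR). The other α-1,6-mannosyltransferase gene, YALI0_F07260g, was more abundant, at 136 and 162 TPM in the deletion libraries, against 124 and 133 TPM in the parent libraries. In CPM its groups overlapped, at 219 and 218 CPM in the deletion libraries, against 208.5 and 300 CPM in the parent libraries. On the CPM scale it had a log2 fold change of -0.22 ± 0.39. YALI0_E01892g, a probable α-1,2-mannosyltransferase gene by its Neurospora crassa relative, had one of -0.001 ± 0.36. The genes matched only by a neighbour's name were YALI0_D11022g, whose text quotes the interval between UNG1 and OST6, and YALI0_C09801g, whose text quotes that between CYR1 and OST1. YALI0_D11022g had 115 and 171 CPM in the deletion libraries, against 150.0 and 67.8 CPM in the parent libraries. The parent libraries lay on either side of the transcript table's deletion library, and its log2 fold change was 0.39 ± 0.45 (95% interval -0.65 to 1.43, adjusted p = 0.826, edgeR). That of YALI0_C09801g was 0.09 ± 0.36. Without both genes the median over the remaining 43 was also 0.10.

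The deposited tables were compared one at a time, by the log2 ratio of CPM between strains. Over the 45 genes the median was 0.19 by transcript table and 0.10 by gene table, and -0.01 and 0.04 over all features. The sign was shared by both tables for 24 of the 45 genes (53.3%), 17 of them up and 7 down, and for 57.5% of all features. Golgi genes had medians of 0.55 by transcript table and -0.13 by gene table, and KTR5 had 0.67 by transcript table and -0.26 by gene table. Oligosaccharyltransferase genes had medians of 0.31 and 0.11. O-mannosyltransferase genes had 0.14 and 0.18. Genes for the dolichol-linked glycan had 0.02 and -0.07, and GPI genes -0.02 and 0.13. GPI1 had -0.47 by transcript table and -1.06 by gene table and YALI0_E02222g had 0.63 by transcript table and 0.75 by gene table.

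**Figure D3:**
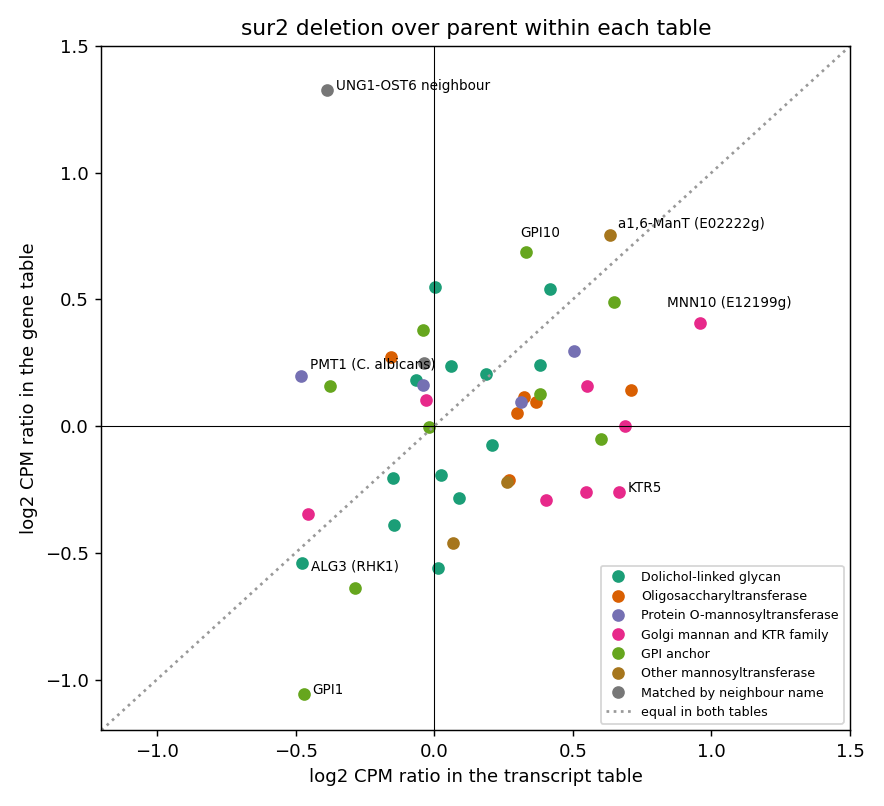
Log2 ratio of CPM, sur2 deletion over parent, for the transcript table (x axis) against the gene table (y axis), 1 point a gene, coloured by role; the dotted line marks equal ratios. Of the 45 points, 17 lie above 0 in both tables and 7 below 0 in both; YALI0_D11022g lies farthest from the line.

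Groups that do not overlap were not more frequent here than elsewhere in CPM. In CPM 8 of the 45 genes (17.8%) had both deletion libraries above both parent libraries, against 22.1% of all features, and 5 (11.1%) had them below, against 20.2%. The picture by TPM was shifted upward for the whole transcriptome. By TPM 30 genes (66.7%) had both deletion libraries above, against 40.6% of all features, and 1 had them below, against 7.19%. On log2(TPM + 1) the median change was 0.55 for the 45 genes and 0.39 for all features, so the excess over the general shift was 0.16, beside 0.08 in the CPM fit. Summed TPM of the oligosaccharyltransferase genes was 493 and 756 in the deletion libraries and 376 and 431 in the parent libraries. Their median change on log2(TPM + 1) was 0.60. Log2 values on the TPM scale understate changes of low genes.

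Genes of the same pathways outside the annotation rule were read from 3 lists of symbols. Of their 36 genes, all tested, 0 were called higher and 0 lower by edgeR. DESeq2 and limma on either TPM scale also called 0. An unadjusted p under 0.05 was found for 3 of the 36 (8.33%), below the 12.4% of all features. The median log2 fold change was -0.10 for 11 sugar donor genes, 0.08 for 11 genes of dolichol and membrane supply, and 0.30 for 14 genes of protein folding and glycan trimming in the endoplasmic reticulum. The tables differed on this last list, with median log2 CPM ratios of -0.03 by transcript table and 0.43 by gene table. The smallest p of the 36 genes belonged to YALI0_E33407g (chromosome E, 3961726 to 3962934), a relative of GDA1. That enzyme hydrolyses GDP in the S. cerevisiae Golgi, which keeps GDP-mannose import going. It had 31.1 and 39.3 CPM in the deletion libraries, against 14.1 and 14.3 CPM in the parent libraries. The deletion libraries were more than 2 times the parent libraries in both tables. This was a log2 fold change of 1.31 ± 0.40 (95% interval 0.40 to 2.22, adjusted p = 0.213, edgeR). Without the transcript table's deletion library it was 1.47 with an adjusted p of 0.0442, the lowest among the alternatives, whose highest was 0.847. That fit takes its spread from the parent libraries alone and assumes that the lone deletion library varies like them, and it called 7.31% of all features higher and 3.92% lower, so the call carries little weight. The other GDA1 relative, YALI0_C17941g, had a log2 fold change of -0.22 ± 0.39, and UGP1 (YALI0_A02310g), which makes UDP-glucose, had -0.42 ± 0.40.

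In the endoplasmic reticulum list, ROT2 (YALI0_B06600g, chromosome B, 887720 to 890485), the catalytic subunit of glucosidase II, which trims glucose from the new N-glycan, had 284 and 186 CPM in the deletion libraries, against 111 and 119 CPM in the parent libraries. Its log2 fold change was 1.03 ± 0.38 (95% interval 0.15 to 1.90, adjusted p = 0.301, edgeR). A second gene matched by the symbol ROT2, YALI0_B03652g, had 0.58 ± 0.40 (adjusted p = 0.637, edgeR). LHS1 (YALI0_B08778g, chromosome B, 1204954 to 1207977), a lumenal HSP70-related chaperone, had 687 and 487 CPM in the deletion libraries, against 309 and 298 CPM in the parent libraries. ROT2 YALI0_B06600g and LHS1 had non-overlapping groups in CPM with the deletion strain higher, as did 22.1% of all features. LHS1 had a log2 fold change of 0.95 ± 0.41 (95% interval -0.002 to 1.91, adjusted p = 0.403, edgeR). HAC1 (YALI0_B12716g), the transcription factor of the unfolded protein response in S. cerevisiae, had 0.86 ± 0.42, and its activator IRE1 (YALI0_A14839g) -0.30 ± 0.42. In the supply list, SMP3 (YALI0_C01463g, chromosome C, 205904 to 208522), which in S. cerevisiae adds the fourth mannose of the GPI anchor, had 53.6 and 71.1 CPM in the deletion libraries, against 37.1 and 30.9 CPM in the parent libraries. The fitted log2 change was 0.87 ± 0.37 (95% interval 0.03 to 1.72, adjusted p = 0.376, edgeR). A second SMP3 relative nearby, YALI0_C01485g, had 0.16 ± 0.47. SRT1 (YALI0_D17556g), a cis-prenyltransferase that makes dolichol, was scarce, with 26 and 12 reads in the deletion libraries and 10 and 3 in the parent libraries, and had a log2 fold change of 1.67 ± 0.81 (95% interval -0.20 to 3.54, adjusted p = 0.473, edgeR). DIE2 (YALI0_B17226g), which is ALG10, had 0.03 ± 0.34.

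A further 6 genes of these pathways were picked from the annotation text. MNN9 (YALI0_B12518g) and ANP1 (YALI0_C04004g), Golgi mannan genes, had log2 fold changes of -0.02 ± 0.41 and -0.33 ± 0.36. The GDP-mannose transporter GOG5 (YALI0_F21791g) had -0.26 ± 0.42, calnexin (YALI0_B13156g) -0.10 ± 0.42, protein disulfide isomerase (YALI0_E03036g) 0.40 ± 0.45 and a class I mannosidase (YALI0_D20174g) 0.37 ± 0.40. None of the 6 passed with edgeR, and 0 had an unadjusted p under 0.05.

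**Figure D4:**
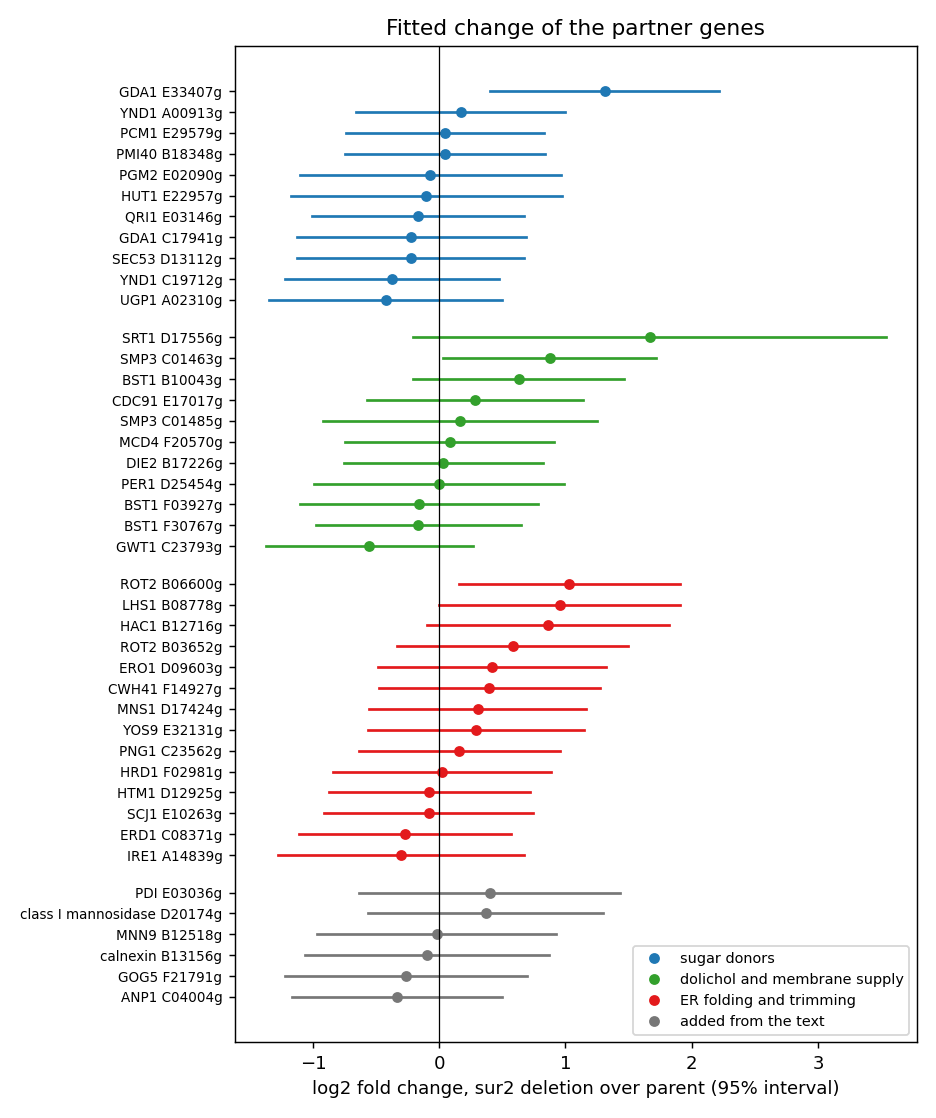
Fitted log2 fold change, sur2 deletion over parent, with its 95% interval for the 36 genes of the 3 partner lists and for the 6 genes taken from the text (edgeR, n = 2 libraries a strain). The GDA1 relative YALI0_E33407g, ROT2 YALI0_B06600g and SMP3 YALI0_C01463g have intervals that exclude 0 before adjustment. Of all features, 12.4% had an unadjusted p under 0.05 (edgeR). After adjustment 0 of the genes shown passed.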

How the data were processed

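The TruSeq Stranded mRNA kit was used, per the labels' protocols. Read counts were deposited as whole numbers per transcript or per gene. The authors' TPM, which divide by length and sum to the same total in each library, stand beside them. RPKM columns were not used. The aligner, the counter with its strand setting, and the genome build were not given in the sources used here. Coordinates and YALI0 identifiers are those of the deposited tables. Column names give the strain but not the replicate number of the labels.

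Counts of the 8381 features that the tables share were joined by identifier. filterByExpr kept 6051. They were tested with edgeR 4.0.16 (R 4.3.3), TMM factors (0.846 to 1.11) and glmQLFTest with strain as the only term, two-sided, adjusted by Benjamini-Hochberg with a threshold of 0.05. Standard errors are the fold change over the root of F, and 95% intervals use the test's t distribution. Values after ± are these standard errors. Within-table ratios used CPM with a pseudocount of 0.5. DESeq2 1.42.0 and limma 3.58.1 on log2(TPM + 1) and log2(TPM + 0.1) were alternatives. The libraries of a strain differed by more than counting noise, with chi-square values per degree of freedom of 284.6 (deletion strain) and 139.3 (parent), so neither was taken as a copy of the other. This does not show that they are separate cultures, and they also come from different tables.

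The members and the lists were chosen with earlier results of these data known. The rule names, in each role, the 3 genes of smallest p and those of highest and lowest TPM, and the 2 of smallest p in each partner list; other genes are given by their values. RHK1 and YUR1 were placed by their known synonym or family. One partner match, naming an interval next to PDI1, was removed on its text, and 6 genes were added from the text, not from values. One gene of the dolichol and membrane supply list is not reported here and is not counted in it.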

Additional observations from a re-analysis of the deposited data

How the results depend on the processing

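The count of glycosylation genes called higher or lower was 0 in each setting: DESeq2, relative log expression (RLE) factors, no filter, both TPM scales, the table as a term, each library left out, and the set without the 2 genes matched by a neighbour's name. Their median log2 fold change, 0.10, was 0.55 on both TPM scales, where the median of all features was 0.39 and 0.43, and 0.19 within the transcript table. With 1 library left out it ran from -0.045, without the transcript table's parent library, to 0.25, without the gene table's. The cause was not tested. Without either parent library edgeR called 0 of all features, with 414 and 361 at an unadjusted p under 0.05, so those 0 counts say little. Partner genes called higher ran from 0 to 1 with 1 library left out, the 1 of 36 being the GDA1 relative without the transcript table's deletion library, where 7.31% of all features were called higher, and were 0 elsewhere. Of 27 named glycosylation genes 12 kept their sign in all 10 settings and 15 changed it at least once. The 12 include GPI1 (-0.96 to -0.34), ALG3 (-0.61 to -0.10), GPI10 (0.28 to 0.91), GPI13 (0.25 to 0.97), PMT4 (0.23 to 0.80) and YALI0_E02222g (0.48 to 1.10), but also PMT2 (0.03 to 0.61) and KTR1 (-0.55 to -0.00043), which came to almost 0 in a setting. No paired analysis was possible because the columns carry no replicate numbers of the labels; the pairing by deposited table, 1 library of each strain in each, is the fit with the table as a term. With 2 libraries a strain, changes of under about 2-fold were not resolved for most of these genes. Larger changes could also miss the threshold. The GDA1 relative YALI0_E33407g, at 2.48-fold, had an adjusted p of 0.213 (edgeR). Outside these pathways, YALI0_A01485g, with a log2 fold change of 2.11 ± 0.46, had 0.0835. YALI0_A03817g, with 2.42 ± 0.39, was called at 0.0276. The 0 calls therefore leave changes well above 2-fold possible.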
